A study of Bos taurus with 6 samples.

Results

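The long-chain acyl-CoA synthetases and the acyl-CoA binding proteins were examined in intramuscular fat (IMF) of steers and bulls. The genes were chosen by symbol, with no count or fold threshold, as ACSL1, ACSL3, ACSL4, ACSL5, ACSL6, ACSBG1, ACSBG2, DBI, ACBD3 and ACBD5. The choice was made with earlier results of these data known. All 10 have a row among the 25444 genes of the mRNA data, and 9 had counts in both groups. The samples are IMF dissected from the sternomandibularis muscle of Chinese Qinchuan males aged 24 months, all weaned at 3 months. The CM group (steers) was castrated surgically at 6 months and the IM group (bulls) was left intact, and both were kept on the same feed. Each group is represented by a single mRNA library of RNA pooled over animals, 6 by the series' design text and 3 by the sample labels, so the spread between animals was not measured.

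A free fatty acid is chemically inert in the cell until it is joined to coenzyme A. Acyl-CoA synthetases make this thioester at the cost of ATP, and acyl-CoA is then the substrate for triglyceride and phospholipid synthesis, elongation, desaturation or oxidation. In fat tissue the step precedes triglyceride storage. Acyl-CoA binding proteins hold the product in the cytosol or at membranes and pass it between enzymes.

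The libraries held 12677375 counts in steers and 9868415 in bulls. Counts were divided by median-of-ratios size factors of 1.04 and 0.959 to give normalised counts. A gene was called when an exact binomial test on its pair of counts had an adjusted p under 0.05 and the absolute log2 fold change was over 1. This test compares the libraries and not the conditions, and the 95% intervals cover counting error only. The listed adipocyte markers, among them PLIN1, ADIPOQ, CIDEC and PPARG, were detected in both groups for 10 of 10 genes. They took 0.285% of all counts in steers and 0.404% in bulls. In normalised counts the log2 fold change of their sum was -0.26 and their median was -0.05. CIDEA was called higher, FABP4 was called lower and the other 8 were not called. Skeletal muscle markers took 0.242% and 0.446% of all counts, and the log2 fold change of their sum was -0.65. MYH1 was called higher, MYH7 and TNNT1 were called lower and the other 7 were not called. Of the 10 myeloid markers 8 were called lower, and so were 8 of the 8 T lymphocyte markers, with 101 summed counts against 879 and CD3G at 0 in steers. Transcripts of haploid male germ cells, in a list written after counts had been seen, were found mostly in the library of the castrated animals. Of the 6 male germ cell markers first listed, 2 were called higher and ACRBP, at 70 and 234 counts, was called lower. The values are given beside ACSBG2. In pooled tissue, fewer cells of a type and less RNA per cell cannot be told apart.

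Of the 10 genes, ACSL3, ACSBG1, ACSBG2 and DBI were called higher in steers and ACSL6 was called lower. Over all 17752 genes with a count, 4.35% were called higher and 8.08% lower. The median log2 fold change of the 10 genes was 0.30, beside 0.01 over all genes tested. The paper on these data had already named the 4 genes called higher among its differentially expressed genes. Their share of the 10 and this median are therefore no independent result. The 4 genes called higher do not form a single role, since 1 is a long-chain synthetase, 2 are bubblegum synthetases and 1 is a binding protein. With an assumed biological coefficient of variation of 0.4 between pooled libraries, ACSBG2 alone was still called, and at 0.2 all except DBI were.

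**Figure D1:**
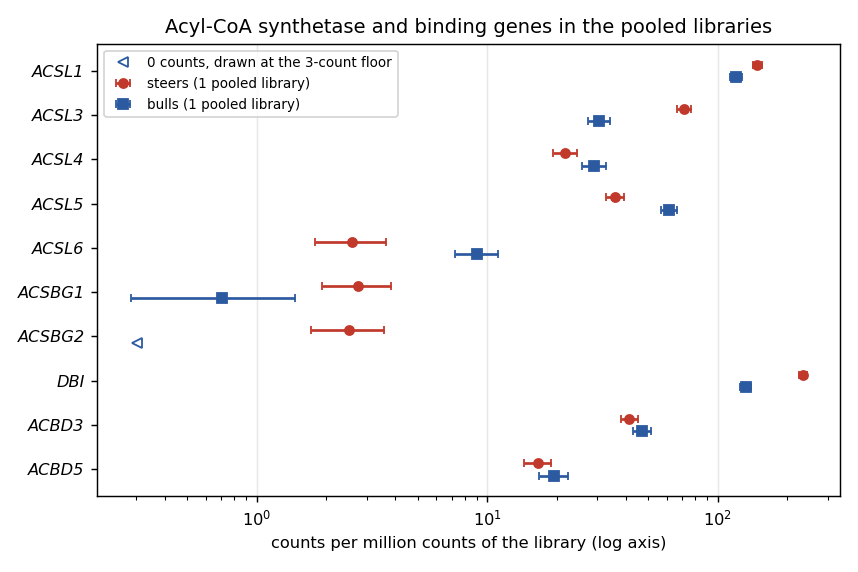
CPM of the 10 genes in the pooled steer library (circles) and the pooled bull library (squares) on a log axis, with 95% Clopper-Pearson intervals that cover counting error only. DBI and ACSL1 had the most counts in both libraries, and ACSBG2, at 0 counts in bulls, is drawn at the floor of 3 counts.

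ACSL1 is the main long-chain synthetase of adipocytes and muscle. It had 1881 counts in steers and 1185 in bulls, which is 148 CPM (counts per 1000000 counts of the library, 95% interval 142 to 155) and 120 CPM (113 to 127). Normalised counts of 1803 and 1236 gave a log2 fold change of 0.54 (0.44 to 0.65). The counting interval lies between 0 and 1, so the difference was larger than the counting error and below the 2-fold threshold.

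ACSL3 encodes a synthetase of the endoplasmic reticulum and of nascent lipid droplets. The steer library held 905 counts and the bull library 302, or 71.4 CPM (66.8 to 76.2) against 30.6 CPM (27.2 to 34.3). Its log2 fold change was 1.46 (1.27 to 1.65), a 2.75-fold difference. No other gene of the ACSL family was called higher. Among all genes with 1000 to 9999 counts over both libraries, which is the class of ACSL1, ACSL3, ACSL5 and DBI, 3.22% were called higher and 3.84% lower.

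ACSL4 prefers arachidonic acid and other polyunsaturated fatty acids. It had 277 counts in steers and 287 in bulls. The log2 fold change was -0.17 (-0.42 to 0.07), an interval that holds 0, and with adipocyte marker counts as the scale it was 0.09. In RefSeq's ARS-UCD2.0 assembly the gene span of ACSL4 overlaps LOC781022, a transcribed pseudogene with its own row of 3190 and 4735 counts. How reads of overlapping genes were divided is not given in the sources used here.

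ACSL5, a synthetase of mitochondria and endoplasmic reticulum, went the other way from ACSL1 and ACSL3. It had 454 counts in steers and 607 in bulls, at 35.8 CPM (32.6 to 39.3) and 61.5 CPM (56.7 to 66.6). The log2 fold change of -0.54 (-0.72 to -0.36) lay below 0 by more than the counting error and did not reach the threshold.

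ACSL6 is best known from brain and red blood cells, where it activates polyunsaturated fatty acids. It had few counts in both libraries, 33 in steers and 89 in bulls. These are 2.60 CPM (1.79 to 3.66) and 9.02 CPM (7.24 to 11.1), and the intervals do not overlap. On the log2 scale the difference was -1.55 (-2.18 to -0.96), a 2.94-fold higher level in bulls. ACSL6, ACSL4, ACBD3 and ACBD5 each had 100 to 999 counts over both libraries, a class in which 3.12% of all genes were called higher and 7.81% lower. Erythroid markers had 46 summed counts in steers and 8 in bulls over 7 listed genes in the data. Only HBB (21 and 1, called higher) and HBA (16 and 6, not called) had at least 10 counts over both libraries. SLC4A1 had 0 and 1, and HBG and ALAS2 were at 0 in both. The part of red blood cell RNA in the difference of ACSL6 was not tested.

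The bubblegum synthetases ACSBG1 and ACSBG2 are named after a fly mutant and are known from brain, adrenal gland and testis rather than from fat. Their summed counts were 67 in steers and 7 in bulls. They had the fewest counts of the synthetases in bulls and the largest differences of the 10 genes.

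ACSBG1 had 35 counts in steers and 7 in bulls, or 2.76 CPM (1.92 to 3.84) and 0.709 CPM (0.285 to 1.46). The log2 fold change was 2.20 (1.01 to 3.62), so the interval runs from about the threshold to 12.3-fold. Glial and neural markers, written as a list because ACSBG1 is a glial gene in brain, are given gene by gene. MBP, a protein of myelin, was counted 162 times in steers and 64 times in bulls and was called higher. SOX10 had 25 and 13 counts and GFAP had 15 and 7, and neither was called. S100B, which adipocytes also express, had 1791 and 1292 and was not called. NEFL, a neurofilament gene, was at 0 in both. The part of glial RNA in the difference of ACSBG1 was not tested.

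ACSBG2 had 32 counts in steers and 0 in bulls. The level in steers was 2.52 CPM (1.73 to 3.56), while the interval for 0 of 9868415 counts in bulls reaches 0.374 CPM. A floor of 3 counts is 0.304 CPM in bulls. Against this floor the steer level was 9.80-fold higher, or 8.30-fold with total counts as the scale. These folds are not lower limits, since the counting interval of the log2 fold change begins at 2.91. Among all genes with 10 to 99 counts over both libraries, the class of ACSBG1 and ACSBG2, 9.69% were called higher and 17.0% lower.

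ACSBG2 is a testis-enriched gene, and several other testis transcripts were also counted mostly in the steer library. Of the 6 male germ cell markers first listed, PRM1, the protamine that packs sperm DNA, had 328 counts in steers and 0 in bulls. TNP1, a transition protein of spermatids, had 29 and 0, and DAZL, a marker of earlier germ cells, was at 0 in both. PRM2 had 1 and 0 counts, DDX4 3 and 1, and ACRBP went the other way with 70 and 234. A longer list of 38 genes of haploid germ cells, which leaves out ACRBP, was written after these counts had been seen. Its sums and calls are therefore no independent result. The longer list held 1090 counts in steers (86.0 CPM) and 22 in bulls (2.23 CPM). At least 10 counts were reached by 25 of the 38 genes in steers and by 0 in bulls, and 24 were called higher in steers and 0 lower. Its gene with the most counts in bulls was ZPBP2, with 6.

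Genes of Leydig and Sertoli cells, the somatic cells of the testis, were also listed after the counts had been seen. CYP11A1 and HSD17B3 were at 0 in both libraries, and STAR had 0 counts in steers and 2 in bulls. CYP17A1 had 34 and 7, and LHCGR, the luteinizing hormone receptor, had 119 and 20, and these 2 were called higher. None of the other 5 listed had more than 7 counts in either library. The sampled tissue is IMF in both groups by the labels. The part of germ cell RNA in the difference of ACSBG2 was not tested, and with a single library of steers the value cannot be given without it.

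**Figure D2:**
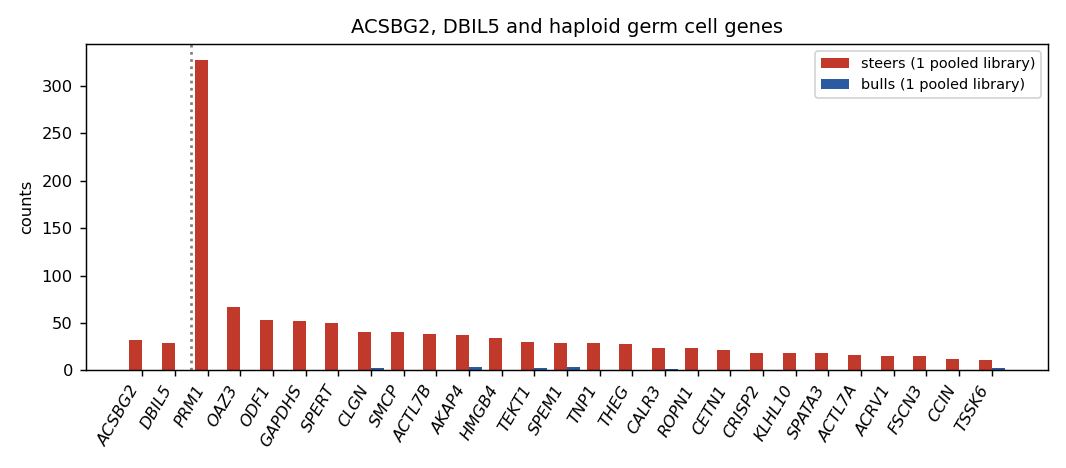
Counts of ACSBG2, of DBIL5 and of the 25 haploid germ cell genes with at least 10 counts in steers, as bars from 0 for the pooled steer library (red) and the pooled bull library (blue). PRM1 reaches 328 counts in steers, and no gene drawn has more than 3 counts in bulls.

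DBI, the acyl-CoA binding protein itself, is a small cytosolic carrier of long-chain acyl-CoA and is abundant in fat tissue. It had the most counts of the 10 genes, 2973 in steers and 1304 in bulls. These are 235 CPM (226 to 243) and 132 CPM (125 to 140). The log2 fold change was 1.07 (0.97 to 1.16), so the counting interval straddles the threshold of 1. With total counts as the scale it was 0.83 and DBI was not called. The span of DBI overlaps C2H2orf76 in ARS-UCD2.0, a gene with 18 and 26 counts.

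ACBD3 is a Golgi protein with an acyl-CoA binding domain, and ACBD5 tethers peroxisomes to the endoplasmic reticulum. For ACBD3 the counts were 524 and 463, at 0.06 on the log2 scale (-0.13 to 0.24). ACBD5 had 210 and 192 counts, at 0.01 (-0.28 to 0.30). Both intervals hold 0 and exclude a 2-fold difference in either direction. With total counts the values were -0.18 and -0.23, so neither gene has a direction that holds across scalings.

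Ratios of genes within a library do not depend on how the libraries are scaled. In steers, ACSL1 made up 52.0% (95% interval 50.4 to 53.6) of the counts of the 7 synthetases, and in bulls 47.8% (45.9 to 49.8). ACSL3 made up 25.0% (23.6 to 26.5) in steers and 12.2% (10.9 to 13.5) in bulls. ACSL5 had 12.6% (11.5 to 13.7) and 24.5% (22.8 to 26.2), so the synthetase with the second most counts was ACSL3 in steers and ACSL5 in bulls. ACSL4 had 7.66% in steers and 11.6% in bulls, and ACSL6 had 0.912% and 3.59%. These are shares of reads, which also depend on transcript length, and they give no order of the proteins.

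Against ACSL1, the ratio of ACSL3 counts was 1.89 times as large in steers as in bulls (95% conditional exact interval 1.62 to 2.20). For ACSL4 this quotient was 0.608 (0.506 to 0.731), for ACSL5 it was 0.471 (0.408 to 0.544), and for ACSL6 it was 0.234 (0.151 to 0.355). The balance within the ACSL family thus differed between the libraries by more than counting error for each of the 4 genes, including ACSL4 and ACSL5, which were not called on their own. For ACSBG1 the quotient was 3.15 (1.37 to 8.43).

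Among the binding proteins, DBI made up 80.2% (78.9 to 81.5) of the counts in steers and 66.6% (64.4 to 68.7) in bulls. The ratio of ACBD3 to DBI in steers was 0.496 (0.430 to 0.573) of that in bulls, and for ACBD5 it was 0.480 (0.388 to 0.593). Both quotients lie below 1 while ACBD3 and ACBD5 were close to 0 on the log2 scale of normalised counts.

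**Figure D3:**
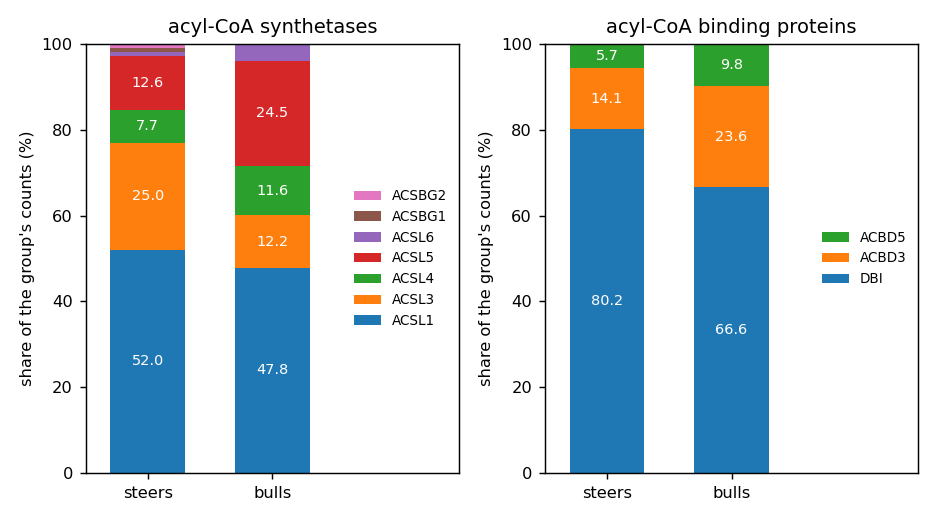
Share of each gene in the summed counts of the 7 synthetases (left) and the 3 binding proteins (right), in percent, for the pooled steer and bull libraries. ACSL3 takes 25.0% of the synthetase counts in steers and 12.2% in bulls, and DBI takes 80.2% and 66.6% of the binding protein counts.

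Summed over the family, the 5 ACSL genes reached 3550 counts in steers against 2470 in bulls, 0.40 (0.33 to 0.48) on the log2 scale. The 3 binding proteins reached 3707 against 1959, a difference of 0.80 (0.72 to 0.88). The first sum was carried by ACSL1 and ACSL3 and the second by DBI.

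Other genes that make, bind, cleave or use acyl-CoA were taken from 7 lists, of which 71 genes had counts. Of these, 8 were called higher in steers and 5 lower. Over all genes with a count, 4.35% were called higher and 8.08% lower. The lists were chosen with earlier results known, so these counts are no independent result. Among the other acyl-CoA synthetases, 1 of 14 was called higher and 3 lower, with a median log2 fold change of -0.39. The gene called higher was ACSS2, which activates acetate, at 10084 and 567 counts. SLC27A1, a fatty acid transport protein of fat and muscle with synthetase activity, was counted 235 times in steers and 446 times in bulls, at -1.05 (-1.28 to -0.82). SLC27A3, of the same family, was at -1.09 (-1.54 to -0.65). ACSM5, a mitochondrial medium-chain synthetase, had 9 and 24 counts and was at -1.54 (-2.83 to -0.38). The intervals of these 3 genes hold the 2-fold threshold, and their calls with other scalings are not given.

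Of 6 other proteins that bind acyl-CoA, 1 was called higher and none lower. This was DBIL5, a DBI-like gene of the testis, with 29 counts in steers and 0 in bulls, 8.88-fold higher against the floor. The counting interval of its log2 fold change begins at 2.76. DBIL5 and ACSBG2 are among 109 genes with at least 10 counts in steers and 0 in bulls. So are 19 of the 38 listed haploid germ cell genes. A common source was not tested. SCP2, a peroxisomal lipid carrier, was at -0.11 (-0.24 to 0.01), and ECI2 was at 0.06 (-0.16 to 0.28).

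Thioesterases, which return acyl-CoA to free fatty acid, showed 1 call among 9 genes. ACOT4, a peroxisomal thioesterase, was counted 39 and 17 times, at 1.08 on the log2 scale (0.22 to 1.99). Its interval also holds the 2-fold threshold. The list median was -0.07.

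Of the enzymes that use acyl-CoA, the glycerolipid acyltransferases had 3 of 11 genes called higher and 0 lower, with a median of 0.41. GPAM, which adds the first acyl chain to glycerol phosphate, was counted 1343 times in steers and 451 times in bulls. Its log2 fold change of 1.45 (1.30 to 1.61) lay within the interval of ACSL3. AGPAT2 was at 1.34 (1.26 to 1.43) and DGAT2, the last enzyme of triglyceride synthesis, at 1.33 (1.29 to 1.36). Elongation and desaturation had 2 of 10 called higher, 0 lower and a median of 0.83. SCD, also on this list, has no row in the data, and the median includes ELOVL2 at 1 and 0 counts. ELOVL6, which elongates palmitate, had 1368 and 322 counts and was at 1.96 (1.79 to 2.14). ELOVL5, an elongase of polyunsaturated fatty acids, was at 1.68 (1.52 to 1.85).

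The acyltransferases of phospholipid and sterol remodelling had 0 of 8 called higher and 1 lower. LPCAT2, a lysophosphatidylcholine acyltransferase of inflammatory cells, was counted 53 and 122 times, at -1.32 (-1.82 to -0.85). LPCAT1 was at 0.42 (0.23 to 0.61) and was not called, and 2 of the 8 genes lay above 0. LPCAT3 and MBOAT7, which place polyunsaturated chains in phospholipids, were at -0.40 (-0.61 to -0.19) and -0.41 (-0.61 to -0.22) and were not called. Myeloid markers were also lower, 20493 summed counts against 43180 with none at 0, and their part in the value of LPCAT2 was not tested. Among 13 genes of acyl-CoA entry into mitochondria and peroxisomes, 0 were called higher and 1 lower, with a median of -0.25. The gene was CPT1A, the carnitine palmitoyltransferase of the outer mitochondrial membrane, at -1.42 (-1.53 to -1.30).

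**Figure D4:**
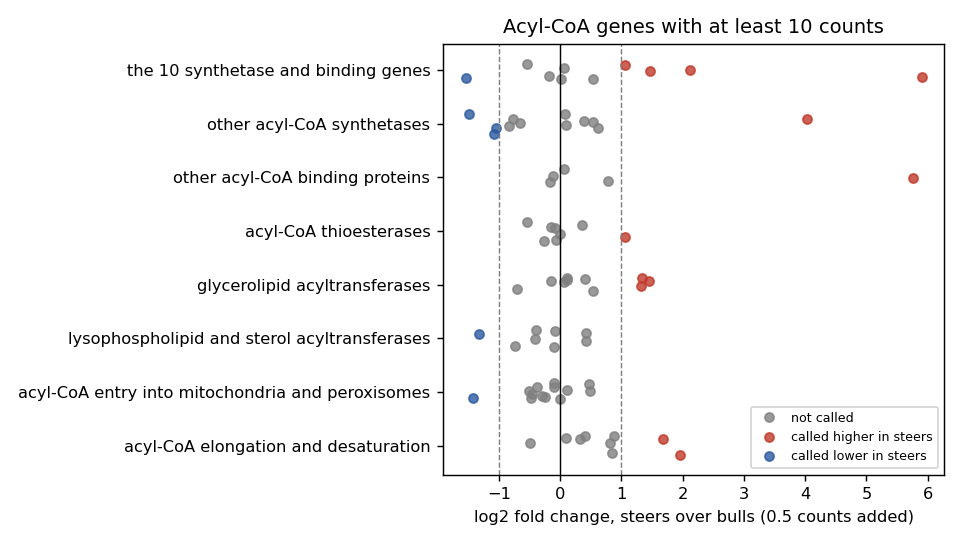
Log2 fold change, steers over bulls, after adding 0.5 counts, for the 10 genes in the top row and for the genes of 7 other acyl-CoA lists with at least 10 counts over both libraries; each point is a gene, red where called higher in steers, blue where called lower and grey otherwise. The points furthest right in the top row and in the row of other binding proteins are ACSBG2 and DBIL5, both at 0 counts in bulls, whose position depends on the added counts and is no measured fold.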

How the data were processed

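IMF mRNA of steers and bulls was sequenced on an Ion Proton. Per the study's methods, the authors removed adaptors and low-quality reads and used MapSplice to align what remained to a bovine assembly. The submitters' processing notes name BWA and GRCh37.p13, a human build, for all samples, and the build was not settled here. The counting program and its strand setting are not given in the sources used here. The authors deposited whole-number counts of each gene, not normalised. The 4 miRNA libraries were not used.

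Size factors were medians of ratios (numpy 2.4.6). An exact equal-tailed, two-sided binomial test (scipy 1.17.1) was run on each pair of counts, and p-values were adjusted by Benjamini-Hochberg over the 17752 genes counted at least in 1 library. Log2 fold changes of single genes are plain ratios of normalised counts. Calls, medians and the alternatives used ratios after adding 0.5 counts. Intervals are 95% Clopper-Pearson, or conditional exact for quotients of ratios. The test was checked only on simulated counts that varied by counting error alone, which is what the test assumes. It compares libraries of pooled RNA, so it says nothing about the spread between animals.

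The 10 genes and all lists were chosen with earlier results of these data known. Named beyond the 10 are the called genes of each list with at least 10 counts, up to 4 per list, and some uncalled or marker genes chosen after their values were seen. Gene spans come from RefSeq (ARS-UCD2.0), where all 10 symbols matched, and were used only for overlaps. edgeR 4.0.16 under R 4.3.3 gave the TMM factors and the tests with an assumed biological coefficient of variation among the alternatives. EBSeq, the tool of the study, was not used. No sequences are shown, since sequence tables were not used here. Some genes of the glial and neural list are not reported here, and no sums over that list are given.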

Additional observations from a re-analysis of the deposited data

How the results depend on the processing

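With 11 alternative settings, ACSBG2 was called in all of them, ACSL3, ACSL6 and ACSBG1 in all except an assumed biological coefficient of variation (BCV) of 0.4, and DBI in 7 of the 11. DBI was not called with total counts (log2 fold change 0.83), with the geometric mean of ACTB and RPS18 counts (0.77), the qRT-PCR controls of the study and a setting chosen after seeing the data, or at a BCV of 0.2 or 0.4. At a BCV of 0.4, 1 of the 10 genes was called higher and 0 lower, beside 52 and 93 over all genes. At 0.2, 368 genes were called higher and 762 lower. Without a fold threshold, ACSL1 and ACSL5 were also called, giving 5 of the 10 genes higher and 2 lower, and 3535 and 3254 over all genes. Scaling moved every gene by the same amount. Over all genes the median was -0.23 with total counts, -0.29 with ACTB and RPS18 and 0.27 with adipocyte marker counts. The median of the 10 genes was then 0.061, 0.0014 and 0.56, and it was 0.28 with TMM factors, 0.32 with upper quartiles and 0.298 with 5 added counts. Adipocyte scaling called 1377 genes higher and 1077 lower, ACTB and RPS18 scaling 487 and 2154. The share of calls that were higher was 35.0% in the values reported, 21.1% with total counts, 18.4% with ACTB and RPS18 and 56.1% with adipocyte markers. Signs changed for ACBD3 (-0.18 with total counts, -0.24 with ACTB and RPS18), for ACBD5 (-0.23, -0.29 and, with TMM, -0.012) and for ACSL4 (0.091 with adipocyte markers). No paired analysis was possible because each group has 1 mRNA library, and for the same reason no library could be left out. Depth limits ACSL6, ACSBG1 and ACSBG2, all under 100 counts per library.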

Other observations

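Genes counted in only 1 of the pooled libraries gave the setting for ACSBG2 and DBIL5. At least 10 counts in steers and 0 in bulls were found for 109 genes, and the reverse for 69. At the 32 counts of ACSBG2 or more, there were 20 and 16 such genes. The 38 haploid germ cell genes were listed after counts had been seen, without ACRBP. Of these, 19 had at least 10 counts in steers and 0 in bulls, and 0 had the reverse. The highest of these after PRM1 was OAZ3, a testis antizyme, at 67 counts, followed by ODF1, a sperm tail protein, at 53. GAPDHS, the sperm glyceraldehyde-3-phosphate dehydrogenase, had 52, and SMCP, of the sperm mitochondrial capsule, had 40. These values are given without an explanation, which was not tested.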
